A study of Mus musculus with 4 samples.

Results

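Cadm2/Spef2 nuclei are germ-line nuclei of the mouse testis that were picked by their RNA. A nucleus belonged to the class when it held at least 1 UMI (unique molecular identifier, a count of 1 captured RNA molecule) of at least 4 of the 10 genes *Gm20125*, *Cadm2*, *Gm44151*, *4930432L08Rik*, *6530411M01Rik*, *C87487*, *Fgf7*, *Cacng8*, *Marchf4* and *Spef2*. It also had to hold a UMI of fewer than 3 of the 8 genes *Pls1*, *Syt16*, *Scai*, *Neb*, *Epha7*, *Wee2*, *Lef1* and *Grin3a*. Only barcodes with at least 1000 UMIs and 500 to 5000 genes were kept, and 3924 of 36152 such nuclei met the rule (10.9%). The genes of the rule came from a clustering of these same nuclei, so levels in the class against other classes are given as a description, without a test.

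The nuclei were released from whole testes of male mice aged 8 weeks and profiled by snRNA-seq in 4 libraries, 2 from WT mice and 2 from *Dhx37*-/- mice, named in the labels as biological replicates. In *Dhx37*-/- mice, which carry a floxed allele on both chromosomes, Cre recombinase under the Amh promoter removes an exon of the RNA helicase gene *Dhx37* in Sertoli cells, the somatic cells that nurse the germ line. Germ cells of these mice are not a target of the Cre, and the WT mice are described without further alleles. Neither the labels nor the methods say whether a library held 1 testis or a pool, so p-values measure the spread between libraries.

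In the testis, spermatocytes pass through a long meiotic prophase in which homologous chromosomes pair, recombine and, in pachytene, silence the X and Y chromosomes. Transcripts for the acrosome, the cap that carries sperm enzymes, and for the axoneme, the microtubule shaft of the flagellum, start to accumulate in late spermatocytes and continue in round spermatids. Spermatids then elongate and pack their DNA with transition proteins and protamines. A class at the boundary between these steps can therefore be placed by genes of prophase, of the meiotic divisions, of the acrosome and of the flagellum.

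Among the genes that chose the class, *Spef2*, a flagellar protein needed for assembly of the sperm axoneme, was at 907 and 694 CPM in WT and 784 and 773 CPM in *Dhx37*-/- libraries in the summed UMIs of the members (CPM, a gene's UMIs scaled to a common library total; replicates 1 and 2 in that order here and below). *Cadm2*, a cell adhesion molecule best known from synapses, was at 319 and 287 CPM in WT and 272 and 250.4 CPM in *Dhx37*-/- libraries. *Fgf7*, a secreted fibroblast growth factor, was at 155 and 347 CPM in WT and 290.4 and 196 CPM in *Dhx37*-/- libraries, and it was lowest in WT replicate 1 and highest in WT replicate 2. *Cacng8*, an auxiliary subunit of AMPA-type glutamate receptors, averaged 179.6 ± 20.3 CPM (SD, n = 4 libraries), and *Marchf4*, a membrane-bound ubiquitin ligase, averaged 85.5 ± 23.2 CPM. Of the excluded genes, *Wee2*, a kinase that restrains CDK1, averaged 8.80 ± 0.822 CPM, and *Scai* averaged 101 ± 17.8 CPM, against 105 and 613 CPM in nuclei that were chosen by holding these genes.

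The rule cut through a continuous range of gene counts. Such counts also depend on the depth of a nucleus, so they cannot show whether the nuclei themselves form a continuum. Over all libraries, 1387 nuclei held 3 of the 10 genes, 1277 held 4, 1291 held 5, and 38 held all 10. Among nuclei with at least 4 of the 10, 1611 held none of the excluded genes, 1469 held 1 and 844 held 2, while 576 nuclei just outside the rule held 3.

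Members made up 10.9% (1060 of 9742) and 13.6% (1095 of 8057) of the kept nuclei in WT and 11.2% (951 of 8509) and 8.31% (818 of 9844) in *Dhx37*-/- libraries. The 95% Wilson intervals of these shares, which cover counting error only, were 10.3 to 11.5%, 12.9 to 14.4%, 10.5 to 11.9% and 7.78 to 8.87%. The median member held 3899 and 4120 UMIs in WT and 4659 and 4790 UMIs in *Dhx37*-/- libraries, and 2286, 2461, 2718 and 2755.5 genes in the same order. Depth per nucleus was thus higher in both *Dhx37*-/- libraries (exact permutation p = 0.333, the smallest that 2 against 2 libraries can give). Total UMIs per library ranged from 51797891 to 75611263. Scrublet called 7.67 to 9.53% of the members doublets, against 4.20 to 4.47% of all kept nuclei. From 17 to 28 kept barcodes were shared between any pair of libraries, and at most 3 of the shared barcodes were members in both.

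For comparison, 4 other classes were set apart by their genes. Wee2/Pls1 nuclei (2466) held at least 3 of the 8 excluded genes, and 1493 of them also held 4 or more of the 10 required genes. Rad51b/Pdgfc nuclei (2504) held at least 2 UMIs of each of these 2 genes, early prophase nuclei (1537) held at least 3 of 12 early prophase genes, and somatic reference nuclei (2860) held at least 3 markers of Leydig cells, macrophages or Sertoli cells. Free RNA was measured in barcodes ranked 45000 to 90000 by UMI count, which were taken to hold no nucleus.

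Most genes of the meiotic divisions (15 of 16), of pachytene to diplotene (11 of 16) and of early prophase (8 of 12) were lower in Cadm2/Spef2 than in Wee2/Pls1 nuclei in all 4 libraries, beside 40.9% of all genes. In counts against Wee2/Pls1 nuclei, all genes means the 18743 with enough UMIs in the members to be tested between genotypes. The lists were not filtered in this way. *Hormad1*, which marks unsynapsed chromosome axes, was at 75.2 and 84.4 CPM in WT and 85.5 and 104 CPM in *Dhx37*-/- libraries in the members and averaged 283 CPM in Wee2/Pls1 nuclei and 34.3 CPM in Rad51b/Pdgfc nuclei. *Mybl1*, the transcription factor that turns on the pachytene programme, was at 27.98 and 21.4 CPM in WT and 21.7 and 16.4 CPM in *Dhx37*-/- libraries in the members against means of 116 and 11.2 CPM. *Piwil1*, the PIWI protein that binds pachytene piRNAs, was at 79.5 and 60.9 CPM in WT and 64.04 and 68.6 CPM in *Dhx37*-/- libraries, against 191 and 46.6 CPM. In all 3 genes the class mean lay between those of the other 2 classes, while single libraries differed: *Mybl1* was highest in WT replicate 1 and *Hormad1* in *Dhx37*-/- replicate 2.

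Most genes of these lists took the same order. Of 16 genes of the meiotic divisions, 15 had a mean in the members that was below Wee2/Pls1 and above Rad51b/Pdgfc nuclei, and the exception, *Kif11*, a spindle motor, was level in the first pair (113.6 CPM in the members and 112.8 CPM in Wee2/Pls1 nuclei). *Knl1*, a kinetochore scaffold, was at 264 and 196 CPM in WT and 235 and 229 CPM in *Dhx37*-/- libraries, against 387 CPM in Wee2/Pls1 and 32.3 CPM in Rad51b/Pdgfc nuclei. Of 16 genes of pachytene and diplotene, 13 fell from Wee2/Pls1 through the members to Rad51b/Pdgfc nuclei. *Cdc25c*, the phosphatase that activates CDK1, was the one gene of that list with its highest mean in the members (60.1 ± 5.41 CPM, against 43.6 and 26.4 CPM). Among all 8204 genes with a mean of at least 20 CPM in the members, 58.7% stood between these 2 classes and 29.8% were highest in the members.

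Genes of the synaptonemal complex and its axis were mixed, with 6 of 11 falling in this order, 1 rising, 2 highest and 2 lowest in the members. *Sycp1*, the transverse filament of the complex, averaged 316 ± 6.95 CPM in the members against 205 CPM in Wee2/Pls1 and 374 CPM in Rad51b/Pdgfc nuclei. *Sycp2*, of the axis, averaged 334 ± 16.7 CPM, against 363 and 72.5 CPM. Of 9 measured recombination genes, 4 were below Wee2/Pls1 nuclei in all 4 libraries and none above, close to the 40.9% of all genes that were below, with a median log2 ratio of -0.48, beside -0.09 over all genes (log2 of CPM + 10 throughout). *Mlh3*, of the crossover endonuclease, averaged 22.8 ± 4.65 CPM in the members against 148 CPM in Wee2/Pls1 nuclei.

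Most round spermatid genes were higher in Cadm2/Spef2 nuclei than in Wee2/Pls1 nuclei, with 14 of 18 above and 3 below in all 4 libraries, beside 29.2% and 40.9% of all genes. *Acrv1*, a protein of the acrosomal matrix, was at 301 and 524 CPM in WT and 593 and 586 CPM in *Dhx37*-/- libraries in the members and averaged 132 CPM in Wee2/Pls1 and 909 CPM in Rad51b/Pdgfc nuclei. WT replicate 1 stood well below the other 3 libraries in this gene. *Catsper3* and *Catsper4*, pore subunits of the sperm calcium channel, averaged 177 ± 11.8 CPM and 251 ± 22.2 CPM in the members, 28.6 and 69.04 CPM in Wee2/Pls1 nuclei and 289.7 and 357 CPM in Rad51b/Pdgfc nuclei. *Spaca7*, an acrosomal protein, was highest in the members, at 515 and 458 CPM in WT and 459.5 and 509 CPM in *Dhx37*-/- libraries, against 182 and 386 CPM.

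Of the 18 round spermatid genes, 15 stood between Wee2/Pls1 and Rad51b/Pdgfc nuclei, 12 of them rising toward the latter, and the median log2 ratio of the list to Wee2/Pls1 nuclei was 0.84. *Spata16* and *Dpy19l2*, both needed to form the acrosome, ran the other way, at 444 ± 30.7 CPM and 189.7 ± 17.3 CPM in the members against 815 and 387 CPM in Wee2/Pls1 nuclei. Free RNA carried these transcripts too: *Acrv1* averaged 365 CPM in barcodes without a nucleus and 185 CPM in somatic reference nuclei, above its 132 CPM in Wee2/Pls1 nuclei. *Catsper3* averaged 80.3 CPM in free RNA and 59.5 CPM in somatic reference nuclei, less than in the members.

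After each nucleus was thinned to 1000 UMIs, *Catsper3* was detected in 13.4% to 16.6% of the members, in 2.44% to 3.10% of Wee2/Pls1 nuclei and in 19.6% to 25.6% of Rad51b/Pdgfc nuclei (range over 4 libraries). In somatic reference nuclei, which should lack the transcript, the share was 4.08% to 7.81%. *Hormad1* was detected in 6.42% to 9.78% of the members and in 17.3% to 26.96% of Wee2/Pls1 nuclei, against 0.743% to 4.16% of somatic reference nuclei. At full depth *Catsper3* was in 43.2% to 51.2% of the members and 12.9% to 21.6% of somatic reference nuclei, and *Hormad1* in 24.8% to 34.7% and 7.43% to 14.1%. The median somatic reference nucleus held 3885, 4200.0, 4674 and 5529 UMIs. At 1000 UMIs *Catsper3* thus stood above the somatic share in the members and below it in Wee2/Pls1 nuclei. All kept nuclei had at least 1000 UMIs, so none was left out by the thinning.

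**Figure D1:**
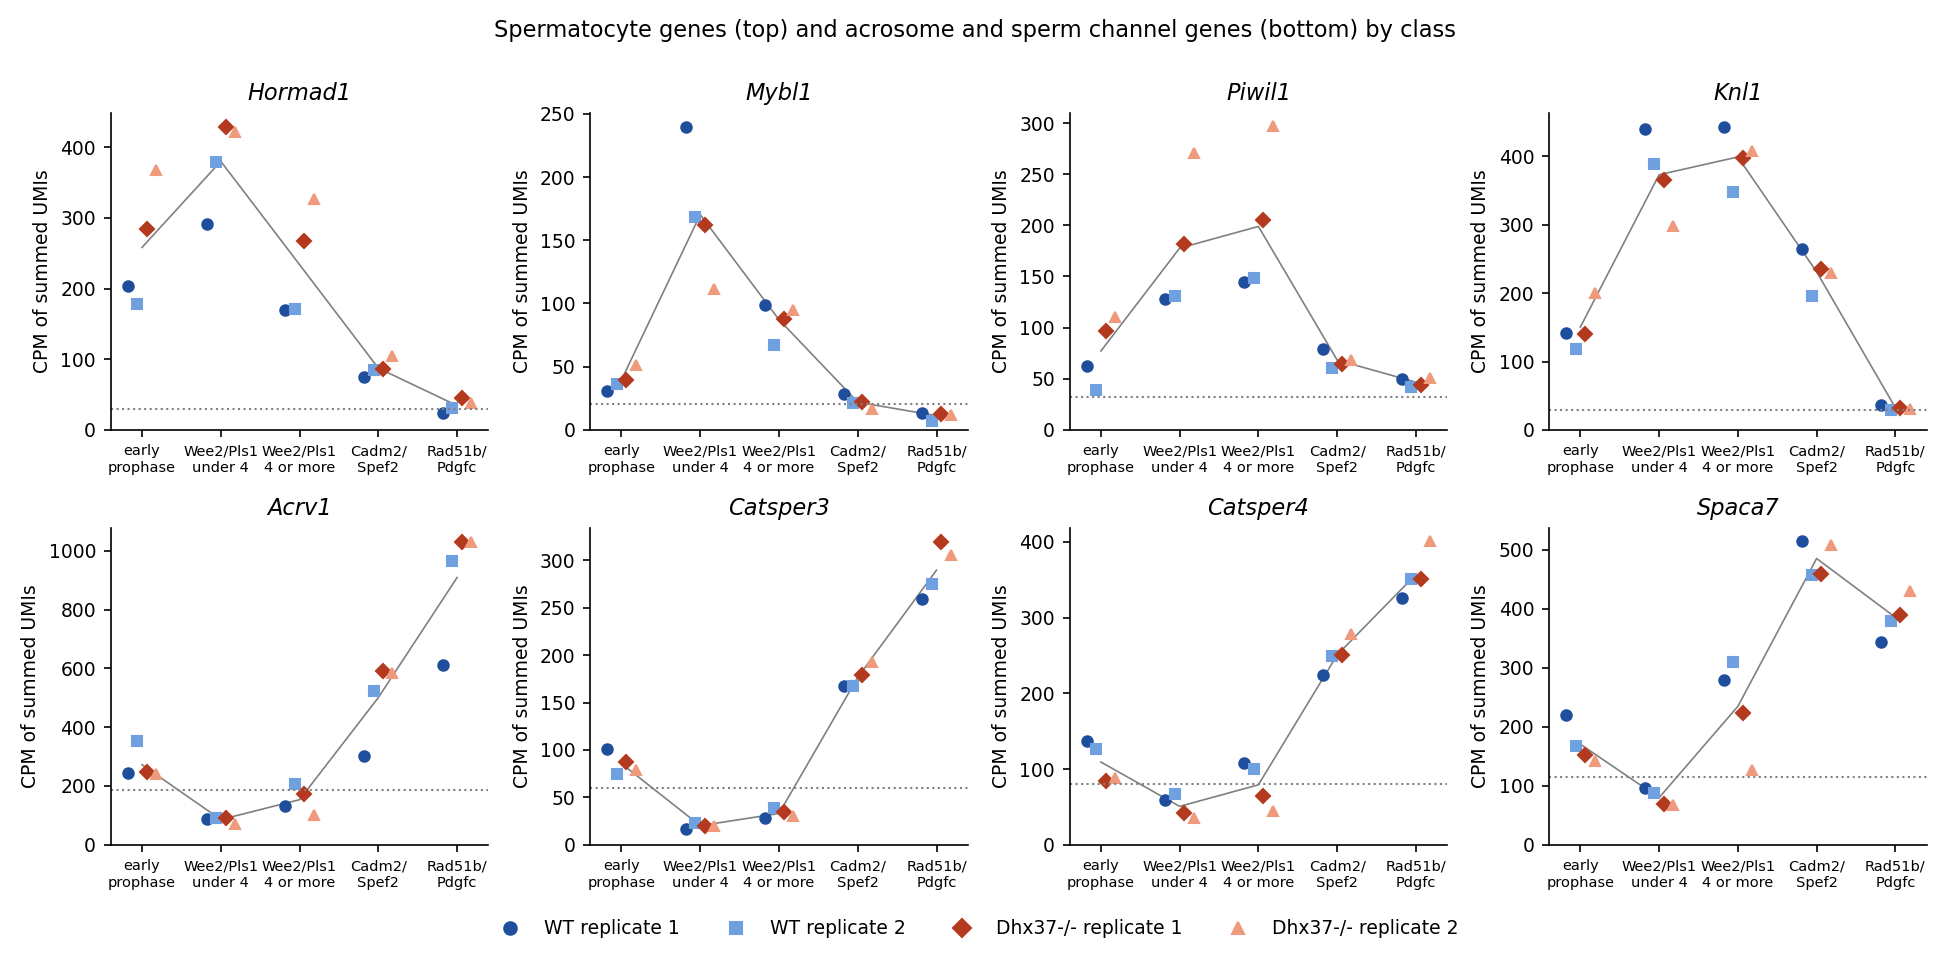
Level of 4 spermatocyte genes (top row) and of 4 acrosome and sperm channel genes (bottom row), as CPM of UMIs summed over the nuclei of a class, with 1 point per library, a grey line through the class means and a dotted line at the mean of somatic reference nuclei. Wee2/Pls1 nuclei are drawn apart by whether they hold under 4, or 4 or more, of the 10 required genes; *Mybl1* falls to 21.9 CPM and *Catsper3* rises to 177 CPM in Cadm2/Spef2 nuclei, and *Hormad1* helped to choose the early prophase nuclei.

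As a sum, genes of elongating spermatids were in the members at about the height of somatic nuclei, which do not use them. Taken singly, 8 of 15 were above and 1 was below somatic reference nuclei in all 4 libraries, beside 8236 and 6769 of 18743 genes tested. The median log2 ratio of the list to somatic reference nuclei was 0.21, beside 0.09. The 15 measured genes summed to 4995 and 4931 CPM in WT and 9133 and 7271 CPM in *Dhx37*-/- libraries in the members, to 4095 to 8847 CPM in somatic reference nuclei and to 16584 to 57953 CPM in free RNA. The protamine gene *Prm1* averaged 2156 ± 784 CPM in the members and 1891 CPM in somatic reference nuclei, and *Tnp2*, a transition protein gene, averaged 762 and 830.2 CPM. By known genes the class thus carried less of the spermatocyte programme and more of the round spermatid programme than Wee2/Pls1 nuclei. The label of spermatocyte-like nuclei was met only in part, so the class is called by its genes here.

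UMIs of both programmes were also counted in single nuclei. With 7 spermatocyte genes and 7 spermatid genes, picked once their values were known, and at 1000 UMIs per nucleus, 64.3, 73.3, 73.3 and 76.0% of the members of the 4 libraries held a UMI of the spermatid genes and 32.5, 26.5, 28.4 and 29.1% held one of the spermatocyte genes. Both were present in 19.9, 18.3, 19.7 and 19.7%, and the product of the single shares was 20.9, 19.4, 20.8 and 22.1%. In Wee2/Pls1 nuclei both were present in 18.7, 19.5, 19.1 and 19.8%, and in Rad51b/Pdgfc nuclei in 7.55 to 10.7%. The share with both sets was thus about the same in the members and in Wee2/Pls1 nuclei, and slightly under the product of the shares in each library of both classes. Free RNA also holds transcripts of both programmes. The pachytene to diplotene list summed to a mean of 7597 CPM in free RNA and 3084 CPM in the members. The meiotic division list summed to 832 and 697 CPM, and the round spermatid list to 4102 and 4432 CPM. Called doublets were kept. The part of free RNA and of doublets in these shares and in the class levels above was not tested.

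Genes of the axoneme were mostly higher in the members than in both neighbouring classes. Of 33 measured axoneme and flagellum genes, 21 had a higher mean in the members than in both Wee2/Pls1 and Rad51b/Pdgfc nuclei, or 63.6% against 29.8% of the 8204 genes above. The list summed to 22043 and 18128 CPM in WT and 19309 and 19121 CPM in *Dhx37*-/- libraries in the members, to 13435 to 15077 CPM in Wee2/Pls1 nuclei, to 5785 to 7082 CPM in Rad51b/Pdgfc nuclei and to 2412 to 3940.3 CPM in somatic reference nuclei. Among Wee2/Pls1 nuclei the sum went with the required genes, at 16029 to 18558 CPM in those with 4 or more of the 10, below the members of the same library in 4 of 4, and 8169 to 10447 CPM in those with under 4. *Spef2* is on this list and also in the rule.

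*Spag16* encodes a protein of the central pair of microtubules and was at 6028 and 4382 CPM in WT and 4804 and 4511 CPM in *Dhx37*-/- libraries in the members. It averaged 2661 CPM in Wee2/Pls1 nuclei, 482 CPM in Rad51b/Pdgfc nuclei and 387 CPM in somatic reference nuclei, and at 1000 UMIs it was detected in 96.8% to 98.4% of the members. *Hydin* and *Spag17*, also of the central pair, averaged 1245 ± 217 CPM and 1100.3 ± 106 CPM, against 836 and 731 CPM in Wee2/Pls1 nuclei. WT replicate 1 was the highest library for *Spag16* and *Hydin*.

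*Cfap61*, of the radial spokes, was at 1512 and 983 CPM in WT and 1099 and 1088 CPM in *Dhx37*-/- libraries, and *Dnah6*, an inner arm dynein heavy chain, was at 693 and 595 CPM in WT and 553 and 526 CPM in *Dhx37*-/- libraries. Both were about level in the 3 libraries other than WT replicate 1, and averaged 139 and 55.8 CPM in Rad51b/Pdgfc nuclei. *Ift88*, of intraflagellar transport, averaged 461 ± 26.5 CPM, against 196 CPM in Wee2/Pls1 nuclei. The list was not uniform. *Dnah8* and *Dnah2*, axonemal dynein heavy chains, were lower in the members than in Wee2/Pls1 nuclei (561 against 755 CPM, and 222 against 380.1 CPM), and *Dnah3* rose further in Rad51b/Pdgfc nuclei (826 against 1122 CPM).

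**Figure D2:**
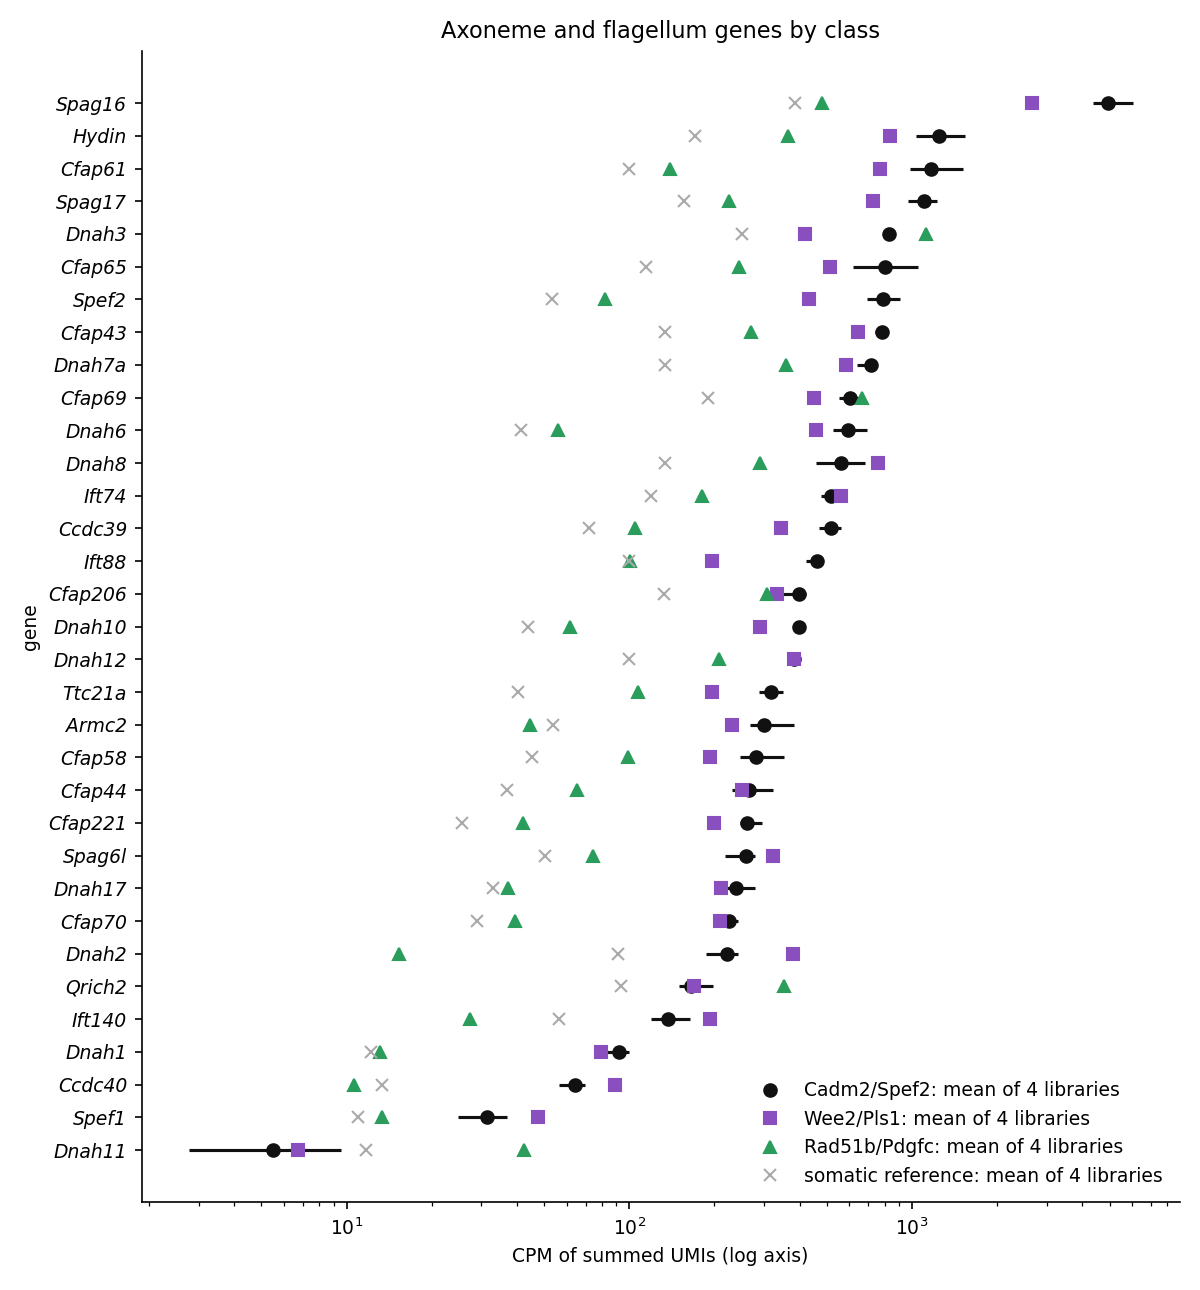
Mean CPM of 33 axoneme and flagellum genes (log axis) in 4 classes, each the mean of 4 libraries; the black bar spans the lowest and highest library of Cadm2/Spef2 nuclei. For 21 genes the black point lies to the right of the Wee2/Pls1 and Rad51b/Pdgfc points, as for *Spag16* at 4931 against 2661 and 482 CPM.

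Because these genes were high together, their start sites were searched for the letters of 2 factors known in this lineage. RFX factors drive genes of cilia and flagella through sites that hold GTTGCCA, and MYBL1 binds a core CAGTTG. Both were searched on both strands. RefSeq windows of 300 bases (250 before and 50 after the start, GRCm38.p6) were at hand for 30 of the 34 listed genes. The RFX letters were in the windows of 6 of these (20%) and of 1358 of all 27025 genes with a window (5.02%). They were in 1 of 15 meiotic division genes (6.67%) and in 0 of 15 round spermatid genes. The MYB core was in 9 of the axoneme genes (30%) and in 4152 of all genes (15.4%). It was in 4 of 15 meiotic division genes (26.7%), a list with 15 of 16 genes lower in the members than in Wee2/Pls1 nuclei. It was in 1 of 15 round spermatid genes (6.67%), a list with 14 of 18 genes higher in the members than in Wee2/Pls1 nuclei. *Dnah10* was the 1 axoneme gene with both (1.17% of all genes had both). The stretches with the RFX letters are shown because *Hydin* and *Ift88*, described above, are among them. They are shown with 10 bases on each side, in the direction of the gene and with the site in capitals (as its other strand, TGGCAAC, where it points backward).
Hydin, chr8:110266953-110266979, + strand: gcggttgctgTGGCAACagatggtaac
Ift88, chr14:57424081-57424107, + strand: gagtcgcgccTGGCAACggctgggcgt
Cfap44, chr16:44394659-44394685, + strand: gacgactctgTGGCAACacctcagttt
Cfap44, chr16:44394769-44394795, + strand: gacgttgctaTGGCAACcgcagtaaac
Cfap58, chr19:47937643-47937669, + strand: gggcgtggcgGTTGCCAggcgaccgaa
Dnah10, chr5:124725085-124725111, + strand: tagggtcgccGTTGCCAcggacgcccg
Ttc21a, chr9:119937602-119937628, + strand: cagcagccagGTTGCCAaggacgcgcg

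The MYB core, in capitals (or CAACTG where it points backward), is shown for *Spag16* and *Cfap61*, whose levels are given above, and for *Spef2*, which is in the rule. All 3 cores lie within 30 bases after the start.
Spag16, chr1:69826983-69827008, + strand: ccgaggggcgCAGTTGcaagcatggc
Spef2, chr15:9748851-9748876, - strand: gcttccttagCAACTGgttgccctgg
Cfap61, chr2:145934776-145934801, + strand: gtttccttagCAACTGtgtgcgcgtc
These matches describe letters in the windows, and binding was not measured.

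Relatives of the required genes were examined as families, each of which includes the required gene itself. Against Wee2/Pls1 nuclei in all 4 libraries, 4 of 17 FGF genes were above and 8 below, 2 and 3 of 9 adhesion genes, 4 and 4 of 12 genes of calcium channel gamma subunits and AMPA receptors, and 0 and 8 of 11 membrane RING-CH ligases, beside 29.2% above and 40.9% below of all genes. In the same order, 9, 3, 4 and 1 of these genes had too few UMIs to be tested between genotypes. Among 17 FGF ligands and receptors, *Fgf14*, an intracellular FGF homologue that binds sodium channels, was at 5510.1 and 4929 CPM in WT and 5416 and 5197 CPM in *Dhx37*-/- libraries in the members and averaged 1817 CPM in Wee2/Pls1 and 385 CPM in Rad51b/Pdgfc nuclei. The secreted ligand *Fgf10* was at 139.9 and 123 CPM in WT and 96.4 and 85.8 CPM in *Dhx37*-/- libraries, against 17.5 CPM in Wee2/Pls1 nuclei. *Fgf7* ran the other way within this pair, with a mean of 247 CPM in the members and 389.9 CPM in Wee2/Pls1 nuclei, although it is one of the genes required by the rule. Of the receptors, *Fgfr2*, the receptor that binds FGF7 and FGF10 in its epithelial form, averaged 773 ± 290.5 CPM, with 499 CPM in WT replicate 1 and 1173 CPM in WT replicate 2. *Fgfr3* and *Fgfr4* were near 0, at 0.333 and 1.07 CPM.

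Among 9 genes of the CADM and nectin families, *Cadm1*, which is known for contacts between germ and Sertoli cells, was at 2018 and 1493 CPM in WT and 1514 and 1567 CPM in *Dhx37*-/- libraries in the members, against means of 772 CPM in Wee2/Pls1 and 571 CPM in Rad51b/Pdgfc nuclei. *Cadm3* and *Cadm4* stayed at 0.0532 and 0.704 CPM. Among the AMPA receptor subunits that *Cacng8* can serve, *Gria4* averaged 467 ± 20.1 CPM in the members and 70.1 CPM in Rad51b/Pdgfc nuclei, while *Gria1*, *Gria2* and *Gria3* averaged 24.2, 4.03 and 3.27 CPM. Among 11 membrane RING-CH ligases, *Marchf10*, a spermatid ligase tied to microtubules, averaged 619.7 ± 49.8 CPM, against 572 CPM in Wee2/Pls1 nuclei, although 8 of the 11 were below that class, and *Marchf1* averaged 53.01 CPM in the members but 716 CPM in Rad51b/Pdgfc nuclei.

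Other genes set the class further apart from Wee2/Pls1 nuclei. By the rule for named genes, the largest log2 ratios belonged to *4921515E04Rik* (3.14, with 791 against 86.3 CPM) and *Adgb* (3.01, with 1041 against 126 CPM), the latter a globin of the testis and of cilia. *Map2*, a microtubule-associated protein of neurons, and *Sez6l* were at 2.57 and 2.66, and *1700041M19Rik*, *4930435F18Rik*, *4933436I20Rik*, *Gm46332*, *C130073E24Rik* and *Gm19272* lay between 2.57 and 2.91. The lowest ratios belonged to *Ttc28* (-3.04), *Mgll*, a monoglyceride lipase (-3.02), *Ranbp17* (-2.98), *Kcnq3*, a potassium channel (-2.84), and *Mast2*, a kinase (-2.71), with *Gm20275*, *Gm15489*, *Gm3455*, *Spats2* and *Abca17* between -2.82 and -2.65. These genes kept the sign of their ratio in all 4 libraries, as the rule for naming required. Some were about as high in Rad51b/Pdgfc nuclei, so they do not mark this class alone. *4930435F18Rik* averaged 170 CPM in the members and 176 CPM in Rad51b/Pdgfc nuclei, *Sez6l* 254 and 240 CPM, and *Map2* 294 and 234 CPM. *Gm46332* differed, at 186 and 26.3 CPM. Of the lowest, *Ttc28* averaged 59.4 and 61.6 CPM and *Mast2* 64.0 and 21.1 CPM. Of 20 p53 target and apoptosis genes (15 with enough UMIs to be tested), 10 were below Wee2/Pls1 nuclei in all 4 libraries and 2 above, beside 40.9% and 29.2% of all genes. *Bbc3*, a p53 target that promotes apoptosis, was one of the latter, at 109 and 154 CPM in WT and 104 and 104 CPM in *Dhx37*-/- libraries, against a mean of 33.1 CPM.

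X-linked genes were low, as a group, against somatic nuclei. Of 46 listed X-linked genes with at least 20 CPM in somatic reference nuclei, 29 (63.0%) were below 50% of the somatic level in the members in all 4 libraries, against 32.98% of 9572 genes in all. The count was 34 (73.9%) in Wee2/Pls1 nuclei, against 25.3% of all genes there, and 36 (78.3%) in Rad51b/Pdgfc nuclei, against 41.7%. *Atrx*, a chromatin remodeller, averaged 10.3 ± 2.07 CPM in the members and 215 CPM in somatic reference nuclei, and *Ddx3x*, an RNA helicase, averaged 2.71 and 62.7 CPM.

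Some X-linked genes were high in the members. *Dmd*, which encodes dystrophin, was at 533 and 409 CPM in WT and 493 and 460.0 CPM in *Dhx37*-/- libraries, against means of 173 CPM in Wee2/Pls1, 71.5 CPM in Rad51b/Pdgfc and 300.3 CPM in somatic reference nuclei. *Phex*, an endopeptidase of phosphate balance, was at 185 and 175 CPM in WT and 162 and 166 CPM in *Dhx37*-/- libraries, against 29.6, 54.6 and 28.7 CPM.

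Levels in the members graded along the rule toward those of nuclei just outside it. From members with none of the excluded genes to members with 2 of them, *Acrv1* went from 593 to 356 CPM and *Mgat4c* from 1621 to 927 CPM (means of 4 libraries). Over the same step *Hormad1* went from 78.8 to 102 CPM and *Mybl1* from 15.2 to 33.4 CPM. *Fgf7* went from 206 to 323 CPM, but it is in the rule, so these nuclei were partly chosen by it. *Fgf14* differed less within the members (5264, 5342 and 5082 CPM) and was 3697 CPM in nuclei with 3 excluded genes and 1832 CPM in those with 4 or more. *Spag16* was at 5046, 4677 and 3036 CPM at 0, 2 and 4 or more. The median depth rose along the same steps, from 4192 UMIs at 0 to 5379 UMIs at 4 or more, and its part in these gradients was not tested.

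**Figure D3:**
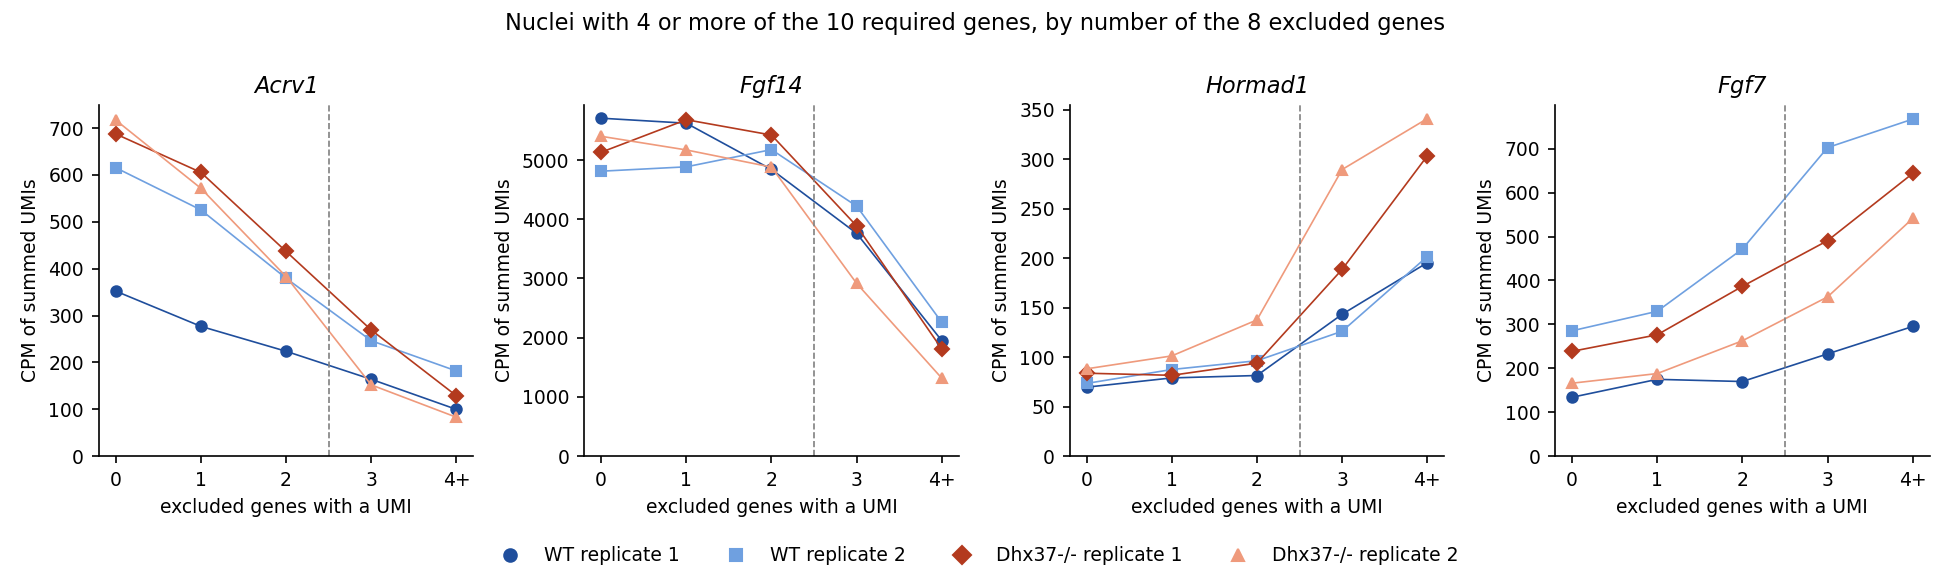
CPM of 4 genes in nuclei with 4 or more of the 10 required genes, by the number of excluded genes with a UMI, with 1 line per library; members lie to the left of the dashed line. *Acrv1* falls and *Hormad1* and *Fgf7* rise across the dashed line in all 4 libraries, and *Fgf14* stays between 4813 and 5709 CPM to its left. *Fgf7* is among the 10 required genes, so the nuclei were partly chosen by it.

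The number of required genes sorted the members in another way. From members with 4 of the 10 to members with 8 or more, *Spag16* went from 4362 to 5502 CPM and *Fgf14* from 4385 to 5948 CPM. *Acrv1* went from 587 to 405 CPM and *Mgat4c* from 1777 to 968 CPM. Nuclei with 2 of the 10, outside the rule, held 2023 CPM of *Spag16* and 631 CPM of *Acrv1*. The median depth was 4091 UMIs at 4 and 5104 UMIs at 8 or more, and its part was not tested.

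The first genotype question is whether the class was more or less frequent when Sertoli cells lacked *Dhx37*. The share of members among all kept nuclei was 12.2 ± 1.92% in WT and 9.74 ± 2.03% in *Dhx37*-/- libraries (SD, n = 2 each), and the libraries overlapped, since *Dhx37*-/- replicate 1 stood above WT replicate 1. The exact two-sided permutation test gave p = 0.667, and the smallest p it can give with 2 against 2 is 0.333. Fewer nuclei of the class and more nuclei of other classes cannot be told apart in such a share. Somatic reference nuclei took 6.29, 3.34, 10.8 and 10.7% of the 4 libraries in the same order, and without them the members took 11.6, 14.1, 12.5 and 9.31%.

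Among Cadm2/Spef2 plus Wee2/Pls1 nuclei alone, the members took 70.4 and 64.4% in WT and 58.4 and 52.6% in *Dhx37*-/- libraries. The groups did not overlap, the difference was -11.9 percentage points, and the exact permutation p was 0.333, the smallest it can be. The median depth of the members was also higher in both *Dhx37*-/- libraries, and its part in this share was not tested beyond the following values. When the rule was applied after thinning to 1000 UMIs it was 70.6, 63.1, 65.7 and 55.6%, and the groups overlapped. With at least 2 of the 10 and none of the 8 genes at 1000 UMIs it was 41.7, 39.6, 32.7 and 28.9%, without overlap. In that setting nuclei with any of the 8 genes counted as Wee2/Pls1 nuclei, so the comparison class was wider too. The ratio of members to early prophase nuclei was 3.73 and 6.52 in WT and 2.55 and 1.15 in *Dhx37*-/- libraries (exact permutation p = 0.333). The ratio to Rad51b/Pdgfc nuclei was 1.31 and 1.88 in WT and 3.14 and 1.01 in *Dhx37*-/- libraries, which overlapped (exact permutation p = 1).

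**Figure D4:**
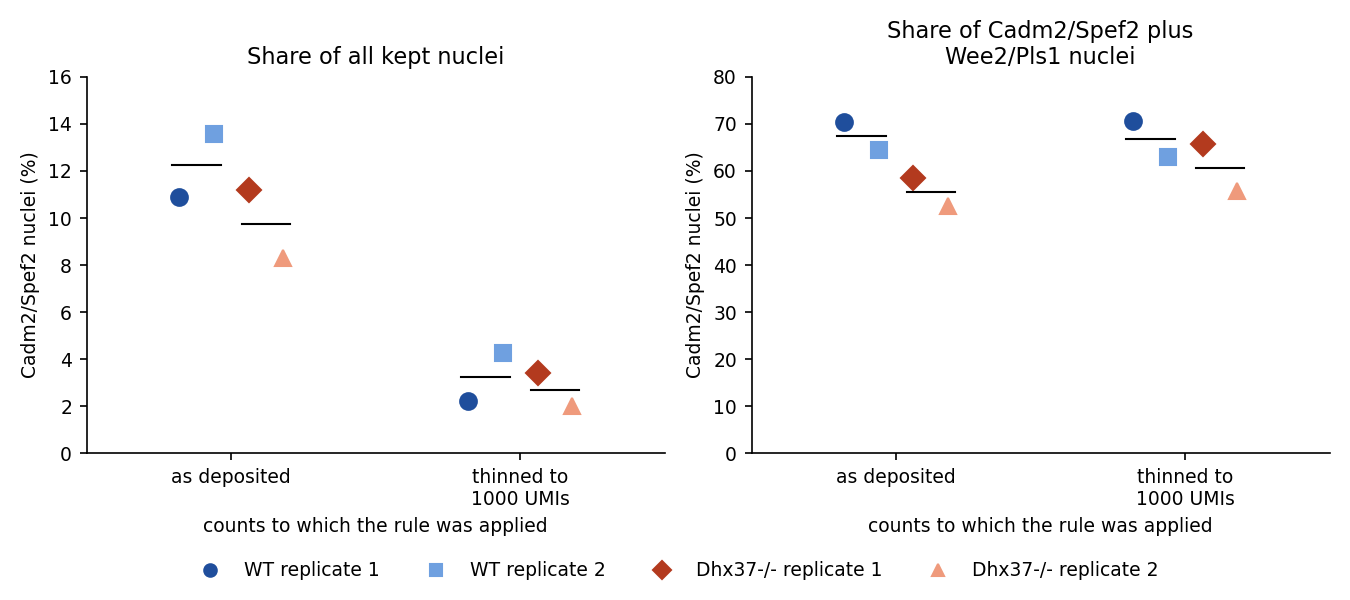
Share of Cadm2/Spef2 nuclei in each library, among all kept nuclei (left) and among Cadm2/Spef2 plus Wee2/Pls1 nuclei (right), with the rule applied to the counts as deposited and after thinning to 1000 UMIs; black lines are genotype means. On the right the genotypes separate as deposited (52.6 to 58.4% against 64.4 to 70.4%) and overlap after thinning with the same rule. The other thinned rule in the text, not drawn, also widens the Wee2/Pls1 class and keeps the genotypes apart (28.9 to 32.7% against 39.6 to 41.7%).

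The second question is whether genes within the members differed between genotypes. *Dhx37* itself is no target in germ cells, and its level was 9.62 and 12.7 CPM in WT and 14.9 and 13.6 CPM in *Dhx37*-/- libraries, which did not pass the test (log2 fold change 0.29, SE 0.31, adjusted p = 0.871, edgeR quasi-likelihood test with Benjamini-Hochberg adjustment). Each SE of an edgeR value is the absolute log2 value divided by the square root of its F statistic. It is an approximation that edgeR does not report. Of 18743 genes tested on UMIs summed per library, 0 passed an adjusted p of 0.05 in edgeR (0.0%), and DESeq2 called 8 (4 higher and 4 lower in *Dhx37*-/- libraries). At an unadjusted p under 0.05, 1173 genes passed (6.26%), 740 of them higher (3.95%) and 433 lower (2.31%) in *Dhx37*-/- libraries. In counts simulated at the same depth, with a common spread for all genes, the test recovered 88.1% of 194 genes changed by 4-fold. It recovered 8.33% of 192 genes changed by 2-fold, so changes of the smaller size were mostly not detectable here. Spread that differs between genes and changes in genes with few UMIs were not simulated, so the share for 4-fold changes may not hold in the data.

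This count rested on which libraries entered. Without WT replicate 1 the count was 1666, without WT replicate 2 it was 2829, and without *Dhx37*-/- replicates 1 and 2 it was 5 and 7. In these fits the lone library is assumed to vary like the group of 2. Genes with both *Dhx37*-/- libraries above both WT libraries made up 23.9% of those tested, and genes with both below made up 13.9%.

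The leading 5 genes by p in both directions are given as values, since none passed in edgeR. Of these, *Gm15446*, *Grm7*, *Ptgds*, *Gm42826* and *Abcb10* were among the 8 genes that DESeq2 called. Higher in *Dhx37*-/- libraries were *Gm15446*, at 0.895 and 1.46 CPM in WT and 13.2 and 15.2 CPM in *Dhx37*-/- libraries, and *Grm7*, a metabotropic glutamate receptor, at 36.7 and 51.1 CPM in WT and 193 and 121 CPM in *Dhx37*-/- libraries (log2 fold change 1.78, SE 0.30, adjusted p = 0.793, edgeR). *Ptgds*, a prostaglandin synthase, was at 17.5 and 11.9 CPM in WT and 80.6 and 50.98 CPM in *Dhx37*-/- libraries (log2 fold change 2.11, SE 0.34, adjusted p = 0.793, edgeR), and the apolipoprotein genes *Apoe* and *Apoc1* were at 12.98, 12.3, 34.04 and 37.6 CPM and 1.79, 1.87, 11.3 and 10.00 CPM in that order. In each of these the genotypes did not overlap. *Ptgds*, *Apoe* and *Apoc1* are genes of somatic cells, with 748, 564 and 71.4 CPM in somatic reference nuclei. Their free RNA moved with the genotype, from 104 to 525 CPM for *Ptgds*, from 103 to 281 CPM for *Apoe* and from 17.9 to 87.9 CPM for *Apoc1*, and its part in the members' values was not tested. *Grm7* was at 32.3 CPM in the WT and 49.5 CPM in the *Dhx37*-/- libraries in free RNA, and the part of free RNA in its values was not tested either.

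Lower in *Dhx37*-/- libraries were *Gm42826*, at 155 and 205 CPM in WT and 53.6 and 52.6 CPM in *Dhx37*-/- libraries (log2 fold change -1.82, SE 0.22, adjusted p = 0.68, edgeR), and *Unc5cl*, at 9.18 and 7.90 CPM in WT and 1.28 and 0.715 CPM in *Dhx37*-/- libraries. *Suclg2*, a subunit of succinyl-CoA ligase, was at 47.7 and 39.5 CPM in WT and 15.3 and 18.6 CPM in *Dhx37*-/- libraries, *Abcb10*, a mitochondrial transporter, was at 24.8 and 39.3 CPM in WT and 6.60 and 10.96 CPM in *Dhx37*-/- libraries, and *Gm21115* was at 13.7 and 15.8 CPM in WT and 4.26 and 2.14 CPM in *Dhx37*-/- libraries. The genotypes did not overlap in these 5 genes either. Genes chosen by the smallest p in these same libraries mostly would not, so this is no separate support in either direction. In free RNA, *Gm42826* averaged 278 CPM in the WT and 56.01 CPM in the *Dhx37*-/- libraries and *Abcb10* 204 CPM in the WT and 42.7 CPM in the *Dhx37*-/- libraries, so free RNA moved the same way, and its part was not tested.

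No gene of the stage, axoneme or family lists passed the adjusted threshold in edgeR, which called 0.0% of all genes tested, and at an unadjusted p under 0.05 few did. The counts of the axoneme and family lists each include 1 gene that chose the members (*Spef2*, *Cadm2*, *Fgf7*, *Cacng8* or *Marchf4*), and none of these 5 is among the genes named below. Over all genes tested, 3.95% were higher and 2.31% lower at that p. Of 33 axoneme genes 1 was lower, *Dnah11*, with 5.48 ± 3.12 CPM, and 23 of the 33, beside 10126 of all 18743 genes tested, had a negative sign (median log2 fold change -0.10, beside -0.04 over all genes tested). Of 18 round spermatid genes 1 was higher, *Tssk2*, a testis kinase, and of 16 genes each of pachytene to diplotene and of the meiotic divisions none was. Of 8 tested FGF genes 1 was lower, *Fgf10* (log2 fold change -0.59, SE 0.20, adjusted p = 0.793, edgeR). Of 15 tested p53 target and apoptosis genes 1 was lower, *Casp9*, an initiator caspase, at 21.04 and 18.3 CPM in WT and 14.04 and 10.2 CPM in *Dhx37*-/- libraries. Of 15 tested genes of ribosome assembly, the process in which DHX37 acts, none had an unadjusted p under 0.05, and of 48 tested X-linked genes 1 did, *Prdx4*. The remaining members of this count were *Syce2*, of the synaptonemal complex, and *Marchf11*, a membrane ligase, both higher (log2 fold changes 0.58 and 0.70).

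Genes of elongating spermatids stood apart from this in their count, and genes of Leydig cells in their signs and median log2 fold change. Of 15 elongating spermatid genes, 9 were higher at an unadjusted p under 0.05, beside 3.95% of all genes, with a median log2 fold change of 0.51. *Tnp2* was at 467 and 444 CPM in WT and 1246 and 891 CPM in *Dhx37*-/- libraries and *Prm2* at 856 and 828 CPM in WT and 1516 and 1406 CPM in *Dhx37*-/- libraries (log2 fold change 0.73, SE 0.18, adjusted p = 0.793, edgeR). The list's sum in the members was 4995 and 4931 CPM in WT and 9133 and 7271 CPM in *Dhx37*-/- libraries, and in free RNA it was 16584 and 34173 CPM in WT and 57953 and 41469.6 CPM in *Dhx37*-/- libraries. Both genotypes' order was the same in somatic reference nuclei, at 4095 and 4832 CPM in WT and 8847 and 6247 CPM in *Dhx37*-/- libraries, and the part of free RNA was not tested. The 8 Leydig genes had a median log2 fold change of 0.88. Of them 7 were higher and 1 lower, beside 8617 and 10126 of all 18743 genes tested. In 5 of the 8 both *Dhx37*-/- libraries stood above both WT libraries, beside 23.9% of all genes tested. Only *Insl3*, a Leydig cell hormone, was higher at an unadjusted p under 0.05 in edgeR, and it was also among the 8 genes that DESeq2 called. *Insl3* was at 2.46 and 9.77 CPM in WT and 45.5 and 28.3 CPM in *Dhx37*-/- libraries, with 64.9 CPM in the WT and 301 CPM in the *Dhx37*-/- libraries in free RNA, and the Leydig genes summed to 38.5 to 205 CPM in the members and to 5640.2 to 6448 CPM in somatic reference nuclei. Of the Sertoli genes, *Rhox5* and *Clu*, and of the macrophage genes, *C1qa*, were also higher at an unadjusted p under 0.05. These lists as a whole were mixed in sign. Of the Sertoli genes 6 were higher and 4 lower (median log2 fold change 0.07), and of the macrophage genes 4 and 4 (-0.02). Of 7 tested endothelial genes 0 were higher and 7 lower (-0.23). Sertoli genes summed to 98.6 to 137 CPM in the members, with 0 of 10 at zero in all libraries, and to 1445 to 3628 CPM in somatic reference nuclei. Of the members, 2.74, 2.01, 4.94 and 4.40% held at least 3 markers of a somatic type, and without them the test again called 0 genes.

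The third question is whether the genotype difference was another in Cadm2/Spef2 than in Wee2/Pls1 nuclei. In Wee2/Pls1 nuclei 0 of 18977 genes passed in edgeR (0.0%) and 75 in DESeq2, with 2991 at an unadjusted p under 0.05 (15.8%). The test of the difference itself, the interaction of class and genotype with library as a block, called 24 of 21611 genes (0.111%), with 3142 at an unadjusted p under 0.05 (14.5%). In 23 of the 24 the fold change was lower (0.106%) and in 1 higher (0.00463%) in the members, and in 22 of the 24 both *Dhx37*-/- libraries stood above both WT libraries in Wee2/Pls1 nuclei, beside 25.3% of all genes in this test. The 24 genes were chosen by a test on these same sums, so the count of 22 describes what was chosen and is no separate result. In the members the genotypes did not overlap in 10 of the 24, beside 37.1% of all genes, which is close to it. DESeq2 called 56 genes, 22 of them shared.

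*Macrod2*, an ADP-ribose hydrolase, was at 368 and 248 CPM in WT and 268 and 322 CPM in *Dhx37*-/- libraries in the members and at 362 and 234 CPM in WT and 801 and 1549 CPM in *Dhx37*-/- libraries in Wee2/Pls1 nuclei (interaction log2 -2.07, SE 0.23, adjusted p = 0.0135, edgeR). The genotypes overlapped in the members and did not in Wee2/Pls1 nuclei. *Stox1*, a DNA-binding protein, was at 13.4 and 9.77 CPM in WT and 15.1 and 29.5 CPM in *Dhx37*-/- libraries in the members and at 16.2 and 19.3 CPM in WT and 106 and 304 CPM in *Dhx37*-/- libraries in Wee2/Pls1 nuclei (interaction log2 -2.56, SE 0.33, adjusted p = 0.0197, edgeR). *Gm52991* was at 8.95 and 7.48 CPM in WT and 10.4 and 17.9 CPM in *Dhx37*-/- libraries in the members and at 6.29 and 6.44 CPM in WT and 57.3 and 131 CPM in *Dhx37*-/- libraries in Wee2/Pls1 nuclei. In these genes *Dhx37*-/- replicate 2 was the highest library of Wee2/Pls1 nuclei, and in *Stox1* and *Gm52991* the genotypes did not overlap in the members either.

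*Tanc2*, a synaptic scaffold protein, was at 203 and 174 CPM in WT and 38.7 and 111 CPM in *Dhx37*-/- libraries in the members and at 91.7 and 70.8 CPM in WT and 76.2 and 135 CPM in *Dhx37*-/- libraries in Wee2/Pls1 nuclei. *Mycbp2*, a ubiquitin ligase, was at 261 and 217 CPM in WT and 150.0 and 148 CPM in *Dhx37*-/- libraries in the members and at 224 and 169 CPM in WT and 299 and 429.9 CPM in *Dhx37*-/- libraries in Wee2/Pls1 nuclei, so its genotypes parted in opposite directions. The one gene with a higher fold change in the members was *1700111N16Rik*, at 48.6 and 50.1 CPM in WT and 61.3 and 90.5 CPM in *Dhx37*-/- libraries in the members and at 18.9 and 19.3 CPM in WT and 5.28 and 8.04 CPM in *Dhx37*-/- libraries in Wee2/Pls1 nuclei (interaction log2 2.04, SE 0.29, adjusted p = 0.026, edgeR). The next 4 genes in that direction, *Mgat4c*, *4930544M13Rik*, *Egfem1* and *Grm7*, did not pass, with interaction log2 values of 0.98, 1.47, 1.701 and 1.35 and adjusted p of 0.0534 for *Mgat4c* and 0.0748 for the others (edgeR).

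**Figure D5:**
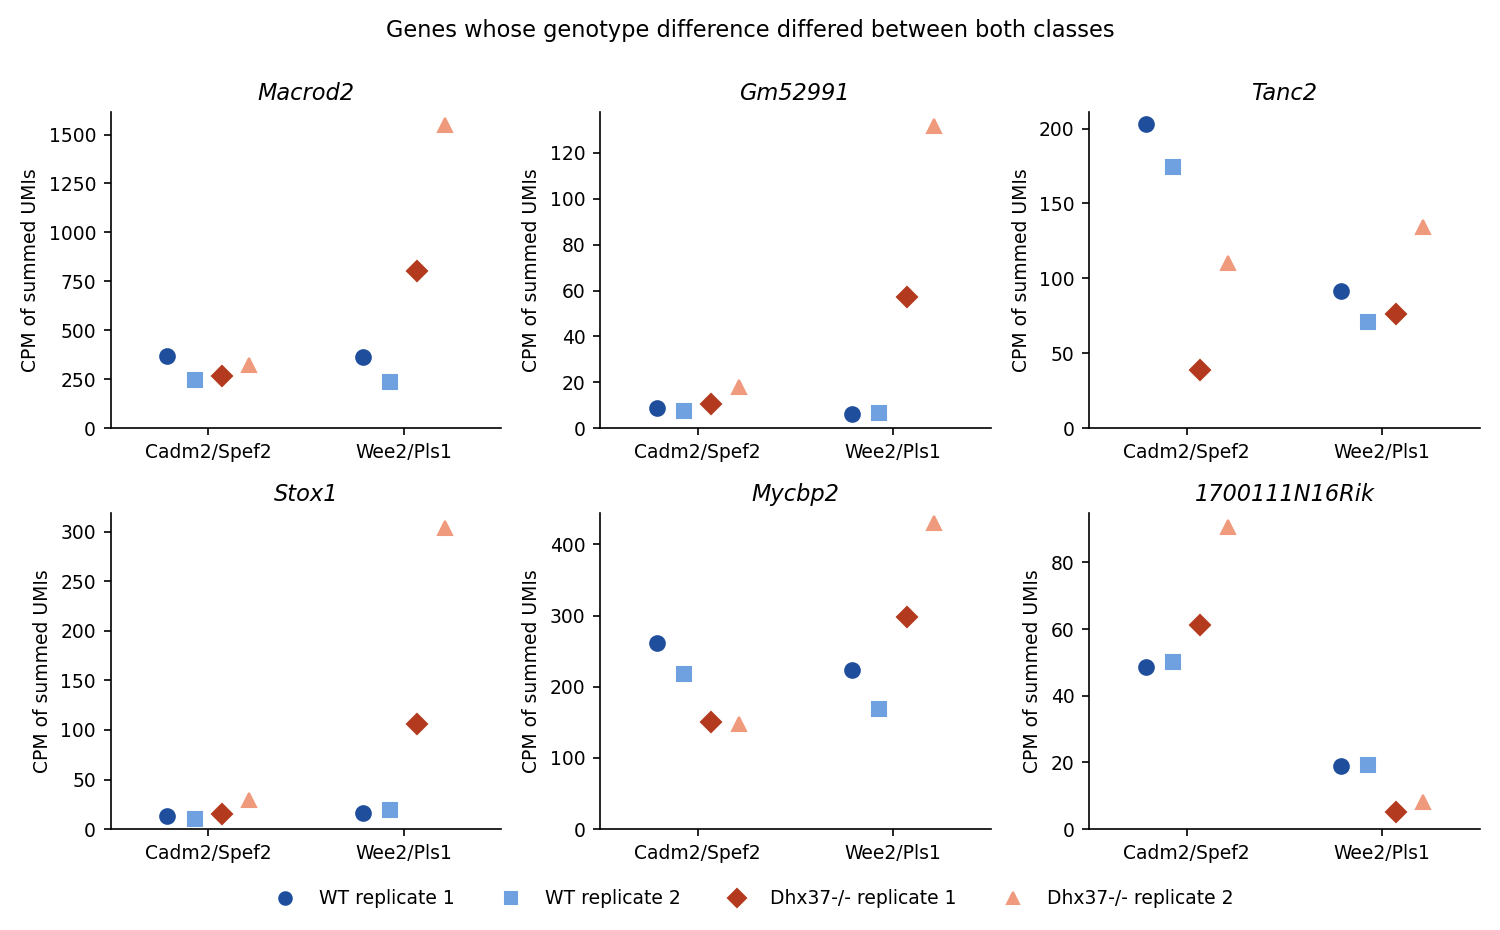
CPM of 6 genes called by the interaction test, in Cadm2/Spef2 and in Wee2/Pls1 nuclei, with 1 point per library. *Macrod2*, *Gm52991* and *Stox1* are high in both *Dhx37*-/- libraries of Wee2/Pls1 nuclei, where *Macrod2* reaches 1549 CPM, and reach at most 322, 17.9 and 29.5 CPM in those of Cadm2/Spef2 nuclei.

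Wee2/Pls1 nuclei were not matched to the members in depth or purity. Their median UMI count was 3763 and 4038 in the WT and 5247 and 6085 in the *Dhx37*-/- libraries, and 4.94, 1.65, 10.5 and 11.4% of them held at least 3 markers of a somatic type. With such nuclei left out of both classes, 30 genes were called, and all 24 were among them. The count was 0 without WT replicate 1, 11 without WT replicate 2, 232 without *Dhx37*-/- replicate 1 and 2 without *Dhx37*-/- replicate 2, and 11 with doublets removed. In counts simulated with the same common spread, the interaction test recovered 40% of 200 genes changed by 4-fold in 1 class and 0 of 200 changed by 2-fold.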

How the data were processed

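snRNA-seq of whole testes gave 2 WT and 2 *Dhx37*-/- libraries on 10x Genomics 3′ chemistry. The authors deposited raw UMI counts per gene and barcode from Cell Ranger, unfiltered and without normalization. The file headers name version 7.2.0. The study's methods and the submitters' processing notes name different genome builds, so coordinates are given only for RefSeq sequences (GRCm38.p6). The notes also name Seurat 3.1.1, which was not used here. Whether intronic reads were counted is not given in the sources used here.

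Counts were read in Python 3.11.15 and checked to be whole numbers. Nuclei were chosen by the stated rule, doublets were kept (Scrublet in scanpy 1.11.5 served an alternative), and UMIs were summed per library and class. Sums were compared with edgeR 4.0.16 in R 4.3.3 (TMM, filterByExpr, quasi-likelihood F-test, two-sided, Benjamini-Hochberg adjusted p under 0.05), with DESeq2 1.42.0 as an alternative. Shares and medians were compared with exact permutation tests over libraries. Log2 ratios between classes used a pseudocount of 10 CPM. The tests were also tried on simulated counts, which took their spread from the fit in the members.

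The members and all 23 gene lists were chosen with earlier results of these data known, and 337 of 343 listed names were in the files. Named were the genes of the rule, *Dhx37*, up to 4 genes per list by level, the 10 highest and 10 lowest ratios to Wee2/Pls1 nuclei (at least 50 CPM in 1 class, 1 sign in all libraries) and the 5 smallest p in each direction of the test in the members and of the interaction. Other list genes, the marker genes followed along the rule, *Insl3*, *Kif11*, *Cdc25c* and the genes tied to motifs were chosen after their values were seen. Clusters and Sertoli cells were not analysed here.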

Additional observations from a re-analysis of the deposited data

Results flagged for a closer look

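The count of 24 genes with an adjusted p under 0.05 in the interaction of class and genotype was picked out because it tests the difference between Cadm2/Spef2 and Wee2/Pls1 nuclei directly. The named genes among them had interaction log2 values of -2.07 (*Macrod2*), -3.13 (*Gm52991*), -1.91 (*Tanc2*), -2.56 (*Stox1*), -1.65 (*Mycbp2*) and 2.04 (*1700111N16Rik*), as the fold change in Cadm2/Spef2 minus that in Wee2/Pls1 nuclei. In early prophase nuclei *Macrod2* was at 579 and 338 CPM in WT and 443 and 628 CPM in *Dhx37*-/- libraries and *Stox1* at 7.03 and 17.3 CPM in WT and 86.7 and 108 CPM in *Dhx37*-/- libraries. *Macrod2* was at 233 and 185 CPM in WT and 207 and 265 CPM in *Dhx37*-/- libraries in somatic reference nuclei. Groups of 2 libraries are too small for a test of single outlying samples.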

How the results depend on the processing

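In Cadm2/Spef2 nuclei the count of genes that differed between genotypes was 0 in edgeR under RLE size factors, without normalization beyond library totals, with doublets or somatic marker nuclei removed, with at least 5 of the 10 genes and at 1000 UMIs per nucleus. It was 58 without the filter on low counts, 8 in DESeq2 and 5 to 2829 when each library was left out in turn. In Wee2/Pls1 nuclei it was 600 without the filter, 75 in DESeq2 and 0 to 199 when each library was left out. The interaction count of 24 became 25 with RLE size factors, 695 without the filter, 56 in DESeq2, 11 with doublets removed and 0 to 232 when each library was left out. Without the filter 36823 genes were tested in the members, against 18743 with it, and the cause of these differences was not tested. The replicate numbers are shared by the labels only, and the deviations of replicate 1 from the group means correlated at -0.146 across 18743 genes. With the replicate block 0 genes were called in both classes, and with the numbers crossed, an alternative added after the data had been seen, 50 were called in Cadm2/Spef2 and 1820 in Wee2/Pls1 nuclei. The share among Cadm2/Spef2 plus Wee2/Pls1 nuclei differed by -16.3 percentage points with no upper limit on genes and by -6.13 after thinning, and the median UMI count differed by 932 with no exclusion against 715 as reported. No result reversed. Each genotype comparison has 2 libraries per group, so the exact tests cannot pass 0.05.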
